A study of Homo sapiens with 8 samples.

Results

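The AP-1 family transcripts FOS, FOSB, FOSL1, FOSL2, JUN, JUNB, JUND and ATF3 were examined in 2 chordoma cell lines with and without TNF-α. Members were the genes that a platform probe set named as its only symbol. This gave 9 probe sets for 8 genes, of 16986 genes tested, and all 8 passed the filter on dim genes. FOSB had more than 1 probe set, and the brightest on average was used for each gene. U-CH1 and MUG-Chor1 are human tumour lines from chordoma, a bone tumour of the skull base and spine that resembles the notochord. RNA was measured on 8 whole-transcript arrays. The treated groups were 1 U-CH1 array and 1 MUG-Chor1 array, from cells that received recombinant human TNF-α (10 ng/mL) for 1 week, with 3 additions a week. Each was set against 3 control arrays of its own line, grown under normal conditions. All cells were grown on gelatin-coated plastic in IMDM and RPMI medium with fetal bovine serum, so serum, which itself induces AP-1 genes, was shared by all groups. The labels do not say whether the 3 controls of a line were separate cultures, so p-values measure the spread between these arrays, which may be technical. Neither the interval between the last addition of TNF or medium and harvest nor the handling of the cells before lysis is given in the sources used here. Such handling cannot be told apart from TNF where it differed between the arms.

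AP-1 is a dimeric transcription factor. FOS proteins cannot pair with themselves and bind DNA with a JUN partner, whereas JUN proteins can also pair with each other. FOS and FOSB are immediate early genes: their transcripts appear within minutes of serum, growth factors, cytokines or mechanical stress and decay quickly. FOSL1 and FOSL2 encode FOS relatives without the strong transactivation domain of FOS and are induced later and for longer. JUND is made more constantly than JUN and JUNB. ATF3 encodes a stress-induced partner of JUN proteins and is also a target of the integrated stress response. TNF-α, an inflammatory cytokine, activates JNK and p38 kinases beside NF-kB, and JNK phosphorylates JUN.

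The 250 bases upstream of the transcription start are shown for FOS and FOSB, which fell, and for JUN and JUND, which did not pass the test. Sequences are from RefSeq, build GRCh38.p14, on the gene's strand. FOS lies at chr14:75278578-75278827 (plus strand), FOSB at chr19:45467746-45467995 (plus), JUN at chr1:58784048-58784297 (minus) and JUND at chr19:18281623-18281872 (minus). Capitals mark matches on either strand to the AP-1 element TGANTCA, the related CRE-like element TGACNTCA, and TGACGT, the core of the cyclic AMP response element.
FOS: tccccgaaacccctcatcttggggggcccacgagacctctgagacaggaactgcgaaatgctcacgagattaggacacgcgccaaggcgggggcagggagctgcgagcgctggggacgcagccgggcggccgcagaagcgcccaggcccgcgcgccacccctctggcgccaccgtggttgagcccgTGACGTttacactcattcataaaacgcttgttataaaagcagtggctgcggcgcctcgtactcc
FOSB: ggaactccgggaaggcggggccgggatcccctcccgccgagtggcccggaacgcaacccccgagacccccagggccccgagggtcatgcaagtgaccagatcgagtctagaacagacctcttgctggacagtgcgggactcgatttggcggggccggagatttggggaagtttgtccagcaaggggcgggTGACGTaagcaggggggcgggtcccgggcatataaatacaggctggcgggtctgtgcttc
JUN: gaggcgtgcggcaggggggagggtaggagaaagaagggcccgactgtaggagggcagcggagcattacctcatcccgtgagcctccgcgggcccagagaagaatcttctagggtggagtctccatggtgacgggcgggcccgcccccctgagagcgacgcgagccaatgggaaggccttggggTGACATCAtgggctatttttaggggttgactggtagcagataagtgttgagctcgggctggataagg
JUND: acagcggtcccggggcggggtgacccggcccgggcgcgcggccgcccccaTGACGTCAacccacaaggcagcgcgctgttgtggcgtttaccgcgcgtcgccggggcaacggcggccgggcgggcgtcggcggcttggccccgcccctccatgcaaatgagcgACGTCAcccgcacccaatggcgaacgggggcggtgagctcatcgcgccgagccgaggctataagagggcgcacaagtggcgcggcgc
FOS and FOSB each held 1 TGACGT, at -64 to -59 and at -60 to -55 from the start, and no match to the other motifs. FOSL2 held 1 at -66 to -61. JUN held TGACATCA at -67 to -60, and JUND held TGACGTCA at -200 to -193, which contains TGACGT on both strands. A further TGACGT of JUND lay on the opposite strand at -87 to -82. For ATF3, the window of the first listed start held TGACATCA at -123 to -116. The window of its second start and that of JUNB held no match. None of the windows of the 7 matched genes held TGANTCA, the CArG box bound by SRF, or the NF-kB motif. Bases further upstream were not searched, so this does not show that a gene, FOS included, lacks such an element. Among 35116 promoter windows of the same length, 7.10% held TGACGT, 6.87% TGACNTCA, 6.57% TGANTCA, 1.16% a CArG box and 5.21% the NF-kB motif. A match in these windows is a string of letters and does not show that a factor was bound.

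FOS and FOSB were far lower on both TNF arrays than on any control array, while none of the FOSL or JUN members, nor ATF3, passed the test. Across both lines FOSB had the lowest TNF effect of all 16986 genes and FOS the next. Values below are deposited log2 signals, on which a difference of 1 is a doubling. FOS, the prototype of the FOS proteins, had 3.56 on the TNF array of U-CH1, against 6.79, 6.10 and 7.08 on its controls. In MUG-Chor1 it had 2.84 with TNF, against 7.10, 7.82 and 8.34 on the controls. The TNF arrays lay 2.54 and 4.26 below the nearest control of their line, and the groups did not overlap. FOSB, the close relative of FOS, had 3.22 with TNF in U-CH1, against 7.13, 6.28 and 7.94 on the controls. The MUG-Chor1 array read 3.66 with TNF, against 8.34, 8.35 and 8.23. Its gaps to the nearest control were 3.06 and 4.58, and again no control came near a TNF array. The median of all deposited values was 2.57, so both genes stood not far above the middle of the array with TNF. A fold change may be understated there, which was not tested.

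In the additive limma fit of line and TNF over 8 arrays, FOSB fell by 4.28 ± 0.35 on the log2 scale (SE; 19.4-fold; Benjamini-Hochberg adjusted p = 0.000487). FOS fell by 4.00 ± 0.43 (16.0-fold; adjusted p = 0.00113). With the mean of both FOSB probe sets in place of the brightest, FOSB fell by 2.92 (adjusted p = 0.00239). These were the 2 of 8 members called at adjusted p under 0.05, both lower. Of all genes tested, 2.48% were called in this comparison, 1.55% higher and 0.930% lower. The median effect over the 8 members was -0.26, against 0.05 over all genes. Within single lines the spread came from the controls, and the lone TNF array was assumed to vary like them. In U-CH1, FOSB fell by 3.90 ± 0.49 (14.9-fold; limma adjusted p = 0.00526) and FOS by 3.09 ± 0.47 (8.54-fold; adjusted p = 0.0126). They were the 2 members called there, both lower, against 1.27% of all genes (0.913% higher, 0.359% lower). The call of FOS in U-CH1 ended without U-CH1 control 1, at an adjusted p of 0.0521. In MUG-Chor1, FOS fell by 4.91 ± 0.47 (30.2-fold; adjusted p = 0.000406) and FOSB by 4.65 ± 0.49 (25.2-fold; adjusted p = 0.000676). No other member was called in MUG-Chor1, where 2.88% of all genes were (1.47% higher, 1.41% lower). The TNF effects of the lines were not shown to differ. The difference, MUG-Chor1 minus U-CH1, was -1.82 ± 0.67 for FOS (limma interaction, adjusted p = 0.468) and -0.75 ± 0.69 for FOSB (adjusted p = 0.976). No member passed that test, in which 0.530% of all genes were called (0.200% higher, 0.330% lower), and FOS alone had an unadjusted p under 0.05, at 0.0206. Fewer cells with the transcript and less transcript per cell cannot be told apart in bulk RNA.

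**Figure D1:**
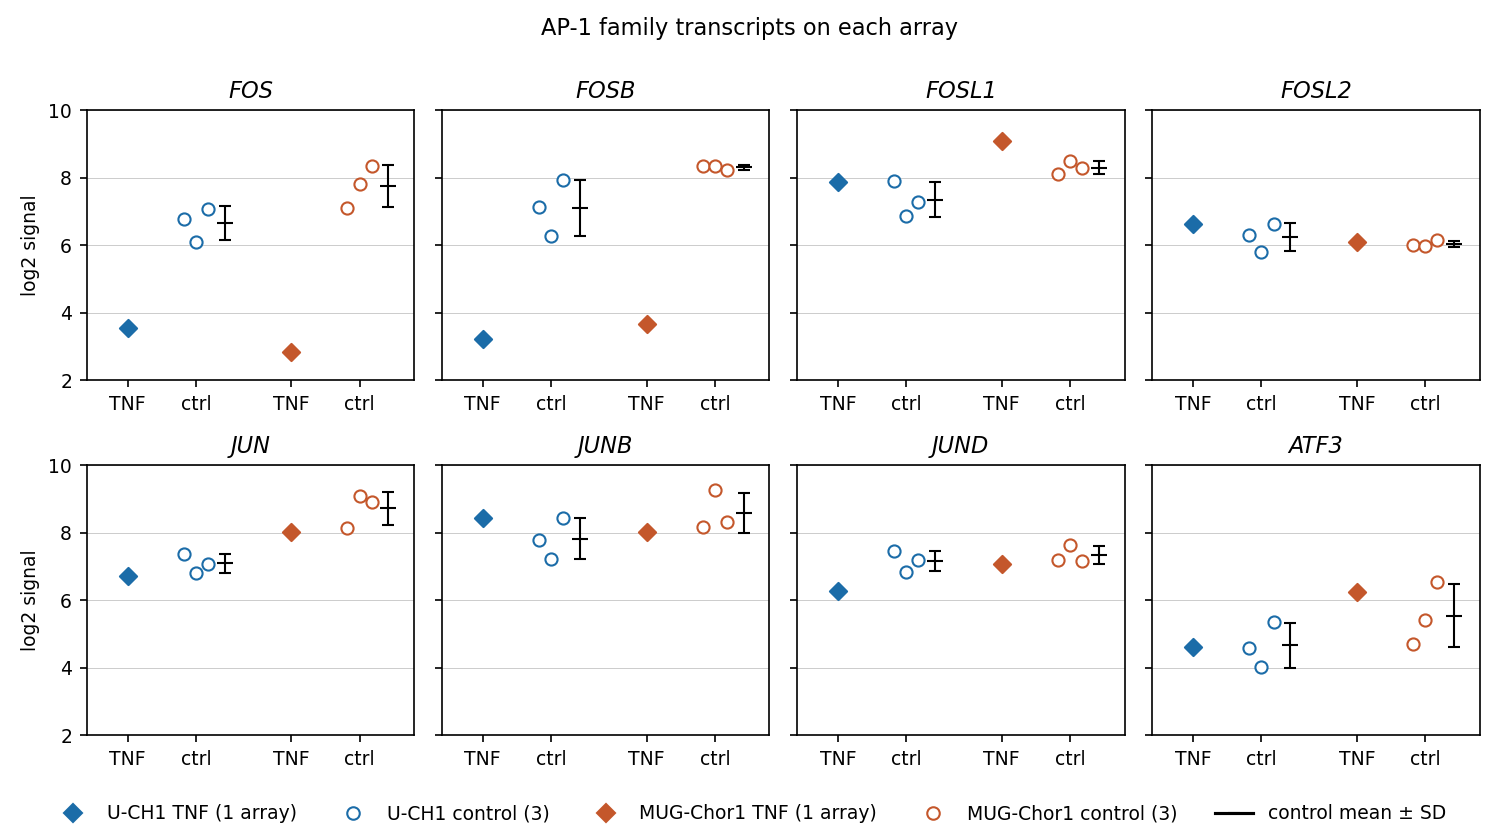
Log2 signal (y axis) of each AP-1 member on the 8 arrays, with TNF arrays as filled diamonds, control arrays as open circles and control means with their SD (n = 3). FOS and FOSB with TNF lie between 2.84 and 3.66, below all controls of either line, while the other 6 genes lie inside the range of their controls or within 0.57 of it.

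A second probe set for FOSB was dimmer and moved less. It read 3.59 with TNF in U-CH1, against 5.55, 4.05 and 5.30 on the controls, and 3.29 with TNF in MUG-Chor1, against 4.97, 5.82 and 4.34. Both TNF values were below every control of their line. When each probe set was tested on its own, its effect across both lines was -1.56 ± 0.42 (limma adjusted p = 0.0822), which missed the threshold.

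The FOS relatives that act later showed no such fall. FOSL1, which encodes FRA-1, had 7.87 with TNF in U-CH1, against 7.89, 6.86 and 7.28 on the controls, within their range. It reached 9.08 with TNF in MUG-Chor1, against 8.10, 8.50 and 8.29, above all controls by 0.57. Its effect across both lines was 0.65 ± 0.26, with a 95% interval of 0.08 to 1.22 and an adjusted p of 0.250. FOSL2, which encodes FRA-2, had 6.64 with TNF in U-CH1, against 6.31, 5.81 and 6.62 on the controls, which is 0.02 above the highest. In MUG-Chor1 it had 6.09 with TNF, against 5.995, 5.987 and 6.153, inside the control range. Its effect was 0.22 ± 0.23 (95% interval -0.28 to 0.72; limma adjusted p = 0.709).

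The JUN proteins are the usual partners of FOS proteins. JUN, the founding member, had 6.71 with TNF in U-CH1, against 7.38, 6.82 and 7.08 on the controls. In MUG-Chor1 it had 8.01 with TNF, against 8.15, 9.08 and 8.92. Both TNF values were below all controls of the line, but by only 0.11 and 0.14, less than the spread among the controls. The effect was -0.54 ± 0.26 (95% interval -1.12 to 0.03; limma adjusted p = 0.360). JUND, the most constant of the JUN genes, had 6.29 with TNF in U-CH1, against 7.44, 6.84 and 7.19 on the controls, and 7.07 with TNF in MUG-Chor1, against 7.18, 7.64 and 7.17. It too lay below all controls in both lines, by 0.55 and 0.09. The effect was -0.56 ± 0.24, with an unadjusted p of 0.0370 and an adjusted p of 0.286 in limma, so it was not called. JUNB, a JUN protein that often opposes JUN, had 8.44 with TNF in U-CH1, against 7.78, 7.23 and 8.45 on the controls. In MUG-Chor1 it had 8.02 with TNF, against 8.17, 9.26 and 8.32. The 2 lines differed in sign, at 0.62 ± 0.49 in U-CH1 and -0.56 ± 0.49 in MUG-Chor1, and the difference of -1.18 ± 0.70 missed the threshold (limma adjusted p = 0.854).

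ATF3, the stress-induced partner, had 4.63 with TNF in U-CH1, against 4.60, 4.02 and 5.37 on the controls. It was at 6.24 with TNF in MUG-Chor1, against 4.69, 5.41 and 6.54. Both TNF arrays lay inside the range of their controls, which was wide in this gene. The effect across both lines was 0.33 ± 0.45 (95% interval -0.66 to 1.32; limma adjusted p = 0.794). The interval includes a doubling of ATF3.

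**Figure D2:**
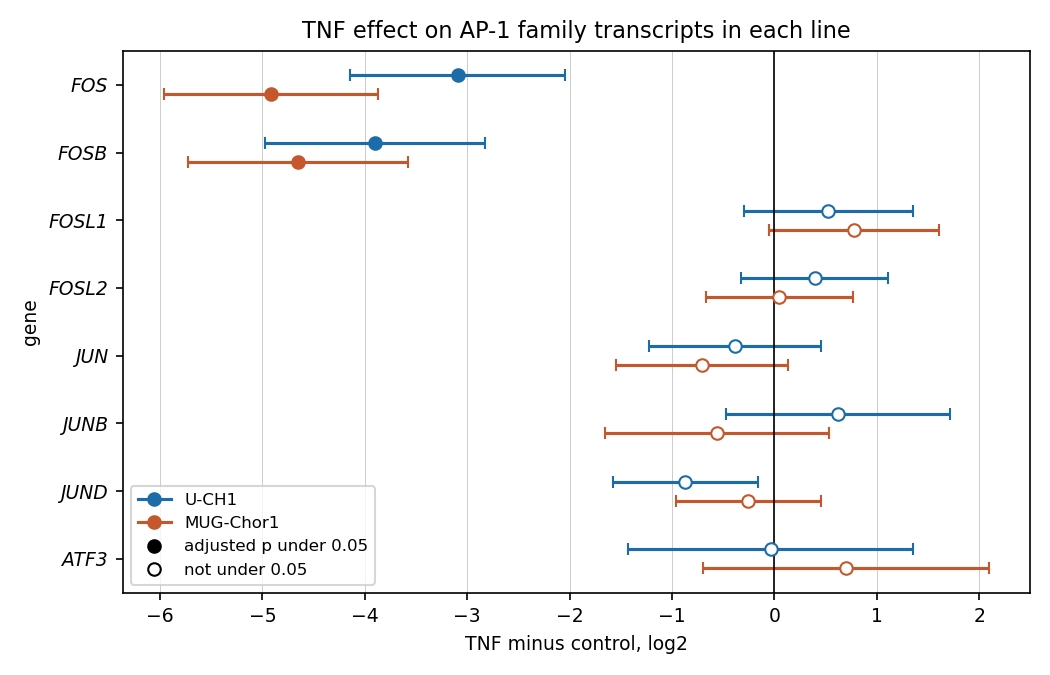
TNF minus control difference (x axis, log2) of each member in U-CH1 and MUG-Chor1, with 95% intervals from the limma fit of 4 group means; filled points have an adjusted p under 0.05. The intervals of FOS and FOSB, whose points lie between -4.91 and -3.09, lie apart from those of the other 6 genes in each line.

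FOS and FOSB were set against the 5 FOSL and JUN members directly, as the difference of the 2 log2 signals on each array. In all 10 pairs the TNF array was below every control of its line, in both lines. The pairs reuse the falls of FOS and FOSB given above, so they are not 10 separate results. Averaged over the lines, FOS or FOSB fell relative to the partner by between 3.44, for FOS against JUND, and 4.93, for FOSB against FOSL1. For FOS minus JUN the arrays read -3.15 with TNF in U-CH1, against -0.72 to -0.01 on the controls, and -5.17 with TNF in MUG-Chor1, against -1.26 to -0.58. For FOSB minus JUNB they read -5.23 with TNF in U-CH1, against -0.95 to -0.51, and -4.37 with TNF in MUG-Chor1, against -0.91 to 0.17. An exact two-sided permutation test, which moved the TNF label within each line in all 16 ways, gave p = 0.0625 for every pair, also after adjustment over the 10 pairs. That is the smallest p this design allows, so it cannot pass the threshold. The 95% intervals of the limma fit reuse the same falls and do not test the difference between genes. As a description, those of FOS and FOSB did not overlap those of the FOSL and JUN members. In U-CH1 the intervals of FOS and FOSB ended at -2.05 and -2.82, while the lowest bound among the FOSL and JUN members was -1.58, for JUND. In MUG-Chor1 they ended at -3.87 and -3.58, against a lowest bound of -1.66, for JUNB.

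The control cultures of the 2 lines differed in the family as well. In MUG-Chor1 controls against U-CH1 controls, 4 of 8 members were higher and none was lower at adjusted p under 0.05 in limma. The background there was high: 18.9% of all genes differed, 10.3% higher and 8.57% lower in MUG-Chor1. JUN averaged 8.72 ± 0.50 in MUG-Chor1 and 7.09 ± 0.28 in U-CH1 (SD, n = 3 each), a difference of 1.63 ± 0.27 (SE; adjusted p = 0.00202) with no overlap of arrays. FOSB averaged 8.31 ± 0.07 in MUG-Chor1 and 7.12 ± 0.83 in U-CH1 (difference 1.19, adjusted p = 0.0349). FOS averaged 7.76 ± 0.62 in MUG-Chor1 and 6.65 ± 0.50 in U-CH1 (difference 1.10, adjusted p = 0.0434). FOSL1 averaged 8.30 ± 0.20 in MUG-Chor1 and 7.34 ± 0.52 in U-CH1 (difference 0.96, adjusted p = 0.0293). With the mean of both FOSB probe sets in place of the brightest, the FOSB difference was 0.63 (limma adjusted p = 0.259). In these 4 genes, by their brightest probe sets, every MUG-Chor1 control lay above every U-CH1 control. For FOS the margin was small, with the nearest controls at 7.10 in MUG-Chor1 and 7.08 in U-CH1. The share of all genes whose controls separated in this way was not counted. These 4 genes were called on the same control arrays, so their separation is not a further result. The call of JUN held without any single control, with adjusted p between 0.00123 and 0.0121. Those of FOS, FOSB and FOSL1 each ended without 4 of the 6 controls in turn, at adjusted p up to 0.148, 0.0982 and 0.0988. ATF3 was higher by 0.88 ± 0.45 (limma adjusted p = 0.207) and JUNB by 0.76 ± 0.35 (adjusted p = 0.163), which did not pass. JUND and FOSL2 differed by 0.17 and -0.20.

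The order of the groups therefore changed between genes. For FOS it ran from MUG-Chor1 controls, the highest, through U-CH1 controls to U-CH1 with TNF and MUG-Chor1 with TNF, with steps of 1.10 between the control means and 3.09 below the U-CH1 controls. The 2 TNF arrays, at 3.56 in U-CH1 and 2.84 in MUG-Chor1, differed by less than FOS controls of 1 line did. For FOSB the same 2 control groups led, and the TNF arrays stood at 3.66 in MUG-Chor1 and 3.22 in U-CH1. For JUN and FOSL1 the 4 MUG-Chor1 arrays all lay above the U-CH1 arrays, with or without TNF. For JUNB, JUND, FOSL2 and ATF3 the groups interleaved.

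Control arrays of 1 line also differed among themselves in the whole family. U-CH1 control 2 was the lowest of the 3 U-CH1 controls for all 8 members, by 0.27 for JUN to 0.84 for FOSB below the control mean. The same array was the lowest for 37.3% of all genes tested and for 19 of 33 other immediate early genes. In MUG-Chor1, control 1 was the lowest for 5 of 8 members, against 29.6% of all genes, and for 20 of 33 immediate early genes. Deviations of FOS from its control mean spanned -0.65 to 0.58 over the 6 controls and those of FOSB -0.84 to 0.82. The TNF arrays lay at -3.09 and -4.91 for FOS and at -3.90 and -4.65 for FOSB. The part of handling in this spread was not tested.

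**Figure D3:**
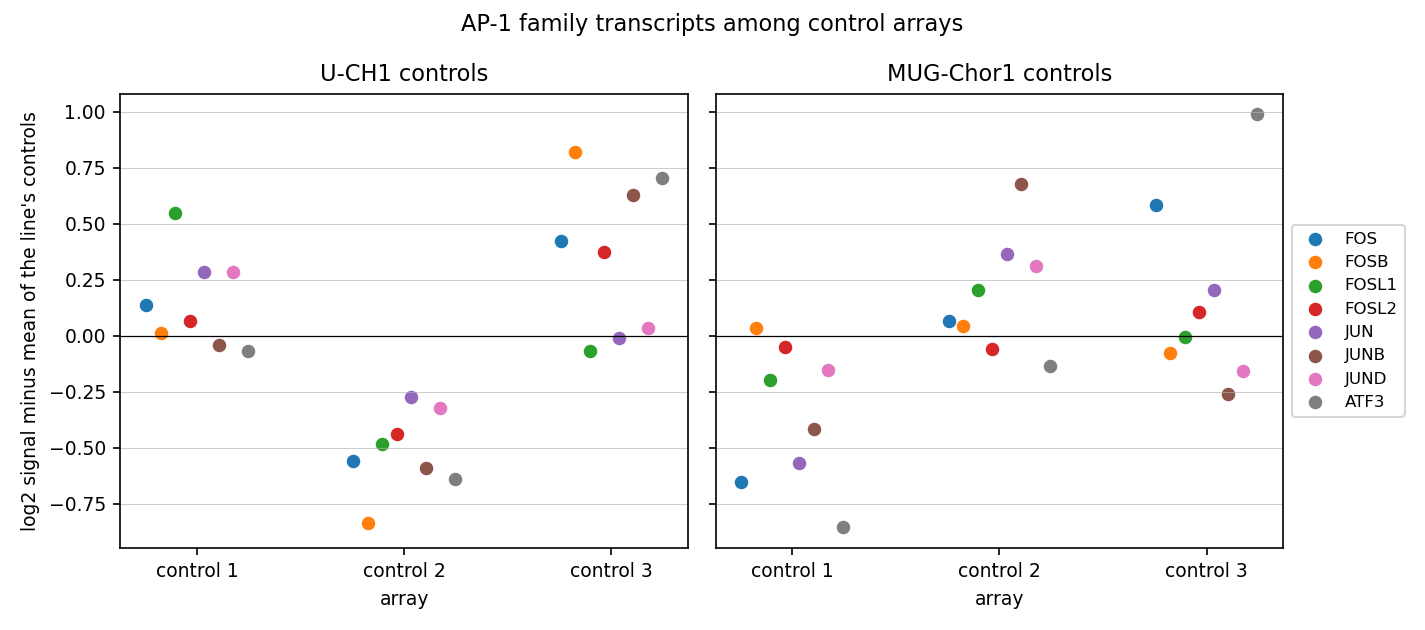
Deviation of each member from the mean of its line's 3 controls (y axis, log2) on each control array (x axis), coloured by gene. All 8 members are below 0 on U-CH1 control 2, and no deviation reaches 1 in either direction.

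Likeness across arrays was measured as Pearson's r after subtracting each line's control mean, as a description. Over 8 arrays it is set largely by the 2 TNF arrays. Among 16985 other genes FOSB ranked as the 21st most like FOS, with r = 0.97. The 5 genes most like FOS were ANKDD1A, RAB3B, SHROOM2, PRAG1 and SAMD5, with r of 0.98 to 0.99. For FOSB they were PPL, MTMR7, SCUBE1, RAB20 and ATP6V1B2, with r of 0.99. FOS and JUN had r = 0.77, FOS and FOSL1 -0.63, and FOS and ATF3 -0.10. Over the 6 controls alone, FOS was closest within the family to ATF3 (r = 0.96) and FOSB to FOSL2 (r = 0.95), while FOS and FOSB had r = 0.56. JUNB was most like CST3 there (r = 0.995) and had r = 0.99 with DDIT3. With 3 arrays a line these values rest on few points.

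Some other immediate early genes were lower with TNF as well. Of 35 listed, 33 were tested; 5 were lower and 1 was higher across both lines, against 0.930% lower and 1.55% higher over all genes. The median was -0.43, against 0.05 over all genes. CCN2, a secreted matricellular protein, had 6.85 with TNF in U-CH1, against 9.59, 9.12 and 9.02 on the controls, and 4.87 with TNF in MUG-Chor1, against 7.77, 7.52 and 8.14. It fell by 2.67 ± 0.24 (limma adjusted p = 0.000686), and the groups did not overlap. The nuclear receptor NR4A2 fell by 2.16 ± 0.50 (adjusted p = 0.0490) and the transcription factor KLF2 by 1.73 ± 0.37 (adjusted p = 0.0396). RHOB, a small GTPase, fell by 1.49 ± 0.28 (limma adjusted p = 0.0224). To complete the count, and chosen after their values were seen, SOCS3, a cytokine signalling inhibitor, fell by 1.47 (adjusted p = 0.0448) and PLK2, a kinase, rose by 0.78 (adjusted p = 0.0473). The calls of NR4A2, KLF2 and RHOB ended without some single array, at adjusted p up to 0.281, 0.274 and 0.290, and that of SOCS3 ended without either TNF array, at 0.367 in U-CH1 alone and 0.0731 in MUG-Chor1 alone. No gene of the list was called higher without 7 of the 8 arrays in turn. The count of 5 lower genes became 1 without U-CH1 control 1 and 1 without the MUG-Chor1 TNF array. In both lines together, 14 of 33 had a TNF value below all controls of the line (42.4%), as had 4 of 8 AP-1 members, namely FOS, FOSB, JUN and JUND. For all genes tested that share was 8.85%. The opposite, a TNF value above all controls in both lines, held for 4 of 33, none of the AP-1 members and 15.0% of all genes.

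EGR1, an immediate early zinc finger factor induced through the same serum response pathway as FOS, differed between the lines. It had 4.19 with TNF in U-CH1, against 4.54, 4.37 and 5.38 on the controls, and 3.75 with TNF in MUG-Chor1, against 8.38, 8.52 and 8.50. EGR1 fell by 4.71 ± 0.37 in MUG-Chor1 (limma adjusted p = 0.000145) and was at -0.58 ± 0.37 in U-CH1 (adjusted p = 0.666). The difference of -4.14 passed the test (limma adjusted p = 0.0102). The MUG-Chor1 controls were above the U-CH1 controls by 3.70 ± 0.26 (adjusted p = 8.59e-06) in EGR1. Across both lines its effect was -2.65 ± 0.67 (adjusted p = 0.0680). DUSP1, an immediate early phosphatase that inactivates MAP kinases, was at -1.27 ± 0.48 with TNF (adjusted p = 0.228) and was higher in MUG-Chor1 controls than in U-CH1 controls by 2.26 (adjusted p = 0.00965). That call of DUSP1 ended without U-CH1 control 1, at an adjusted p of 0.0528.

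**Figure D4:**
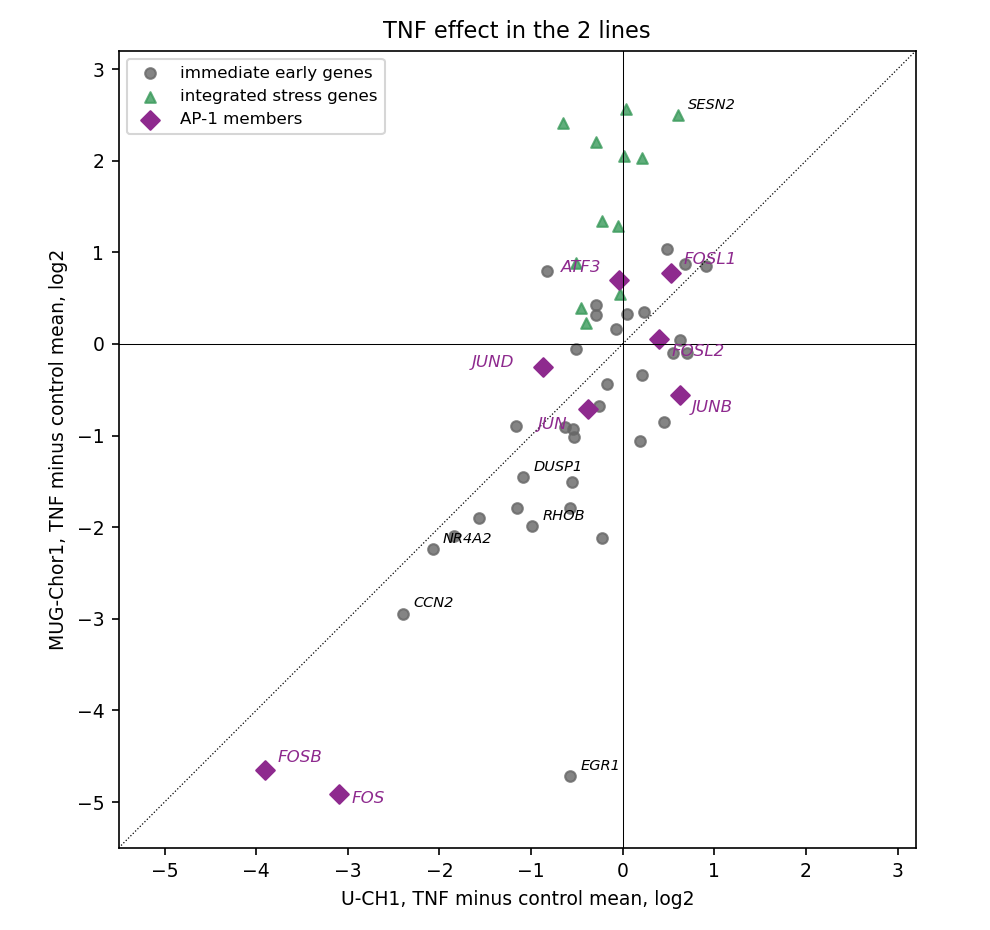
TNF minus control mean (log2) in U-CH1 (x axis) and MUG-Chor1 (y axis) for AP-1 members, 33 immediate early genes and 12 integrated stress genes; the dotted line marks equal effects. FOS and FOSB lie at the lower left, EGR1 lies at -4.71 in MUG-Chor1 and -0.58 in U-CH1, and stress genes such as SESN2 are above 0 in MUG-Chor1.

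Genes that act upstream of AP-1 or pair with its members were also tested. Across both lines 2.48% of all genes were called, 1.55% higher and 0.930% lower. In that limma fit 2602 of 16986 genes had an unadjusted p under 0.05. None of 9 other dimer partners tested was called, and MAFG had the smallest p (0.60 ± 0.17, limma adjusted p = 0.101; 1 higher and 0 lower at an unadjusted p under 0.05). None of 6 SRF and ternary complex factor genes, which drive FOS through the CArG box, was called across both lines, nor had any an unadjusted p under 0.05 there; ELK4 came nearest at 0.22 ± 0.18 (limma adjusted p = 0.623). Of 19 MAP kinase cascade genes tested, MAP2K6, the kinase upstream of p38, fell by 2.24 ± 0.38 (limma adjusted p = 0.0131). MAP3K11, a kinase upstream of JNK, rose by 0.99 ± 0.21 (adjusted p = 0.0369). Of 16 feedback inhibitors and reporters of that cascade, DUSP10, a phosphatase of JNK and p38, rose by 1.47 ± 0.28 (limma adjusted p = 0.0229). At an unadjusted limma p under 0.05 across both lines, 6 of the 19 cascade genes were higher and 2 lower. Of the 16 feedback genes, 3 were higher and 1 lower. In U-CH1 alone MAP3K14, a kinase of the non-canonical NF-kB pathway, rose by 1.57 (limma adjusted p = 0.0358). The phosphatase DUSP7 rose there by 1.34 (adjusted p = 0.0491), and both were named after their values were seen. In U-CH1 1.27% of all genes were called, 0.913% higher and 0.359% lower. The calls of MAP3K11 and DUSP10 ended without some single array, at adjusted p up to 0.273 and 0.189, and that of MAP2K6 ended without either TNF array, at up to 0.0835.

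Among genes known as AP-1 targets, calls went in the other direction. Of 25 listed, 17 were tested, 5 were higher and none was lower across both lines, against 1.55% higher and 0.930% lower over all genes. Their median was 0.47, against 0.05 over all genes. IL6, an inflammatory cytokine, had 7.18 with TNF in U-CH1, against 4.03, 5.11 and 4.87 on the controls, and 6.38 with TNF in MUG-Chor1, against 2.96, 2.38 and 3.96. It rose by 2.90 ± 0.40 (limma adjusted p = 0.00476). MMP9, a gelatinase, rose by 1.97 ± 0.34 (adjusted p = 0.0161) and HMOX1, haem oxygenase 1, by 1.72 ± 0.30 (adjusted p = 0.0149). The chemokine CXCL8 rose by 1.68 ± 0.20 (limma adjusted p = 0.00235). The fifth, MMP1, was named after its values were seen and rose by 1.35 (adjusted p = 0.0197). IL6, MMP9 and CXCL8 are also targets of NF-kB, so this list is not specific to AP-1. The calls of IL6, MMP9 and HMOX1 ended without 1 of the TNF arrays, at adjusted p of 0.0604, 0.150 and 0.146. That of MMP1 ended without either, at 0.109 in U-CH1 alone and 0.105 in MUG-Chor1 alone.

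Transcripts that report cell stress were examined as well. None of 7 heat shock genes tested was called by limma in either line or across both, and none had an unadjusted p under 0.05 there. HSPH1 had the smallest p, at 0.37 ± 0.18 (adjusted p = 0.378). The mean level of these 7 genes was 6.57 with TNF in U-CH1, against 6.35 to 6.61 on the controls, and 6.66 with TNF in MUG-Chor1, against 6.46 to 6.54. Of 12 integrated stress response genes, none was called across both lines. In MUG-Chor1 alone 7 were higher, where 1.47% of all genes were. In U-CH1 none was, against 0.913% of all genes. SESN2, a stress-induced metabolic regulator, had 7.27 with TNF in MUG-Chor1, against 4.43, 4.92 and 4.96, and 5.98 with TNF in U-CH1, against 5.22, 5.05 and 5.87. It rose by 2.50 ± 0.36 in MUG-Chor1 (limma adjusted p = 0.00392) and was at 0.60 ± 0.36 in U-CH1. The difference between lines passed for 2 of the 12, PSAT1 (2.50, limma adjusted p = 0.0315) and SLC7A11 (2.52, adjusted p = 0.0450), named after their values were seen. Of all genes 0.530% passed that test, 0.200% higher and 0.330% lower. ATF4, the main factor of that response, was at -0.03 ± 0.27 across both lines (adjusted p = 0.972). DDIT3, its effector CHOP, was at 0.62 ± 0.31 (limma adjusted p = 0.380). The MUG-Chor1 TNF array had ATF3, a gene of the same response, inside its control range while 7 of 12 other stress genes were higher.

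Other features of the TNF arrays moved as well. The mean level of 7 chordoma markers was 7.61 with TNF in U-CH1, against 7.94 to 8.39 on the controls, and 5.71 with TNF in MUG-Chor1, against 7.90 to 8.17. All 7 had an effect below 0 in each line. Their median TNF effect for U-CH1 stood at -0.61, against 0.04 over all genes. For MUG-Chor1 the median stood at -2.28, against 0.06 over all genes. Across both lines 3 of 7, TBXT, KRT19 and ACAN, were called lower, against 0.930% of all genes. U-CH1 had none called, against 0.359% lower over all genes. MUG-Chor1 had 5 called lower, which added CD24 and SOX9, against 1.41% of all genes. TBXT, the notochord factor that defines chordoma, had 8.80 with TNF in U-CH1, against 9.14 to 9.75 on the controls, and 7.51 with TNF in MUG-Chor1, against 9.40 to 9.46. It fell by 1.30 ± 0.27 across both lines (limma adjusted p = 0.0344). Fibroblast markers averaged 4.17 with TNF in U-CH1, against 3.93 to 4.22, and 4.74 with TNF in MUG-Chor1, against 3.30 to 4.01. In MUG-Chor1 3 of 7, DCN, LUM and FAP, were called higher, against 1.47% of all genes. The other 4 had an effect below 0 and were not called. The median there was -0.07, against 0.06 over all genes. Leukocyte markers averaged 3.39 with TNF in U-CH1, against 2.98 to 3.00, and 3.21 with TNF in MUG-Chor1, against 3.02 to 3.23. Endothelial markers averaged 3.08 with TNF in U-CH1, against 2.99 to 3.18, and 2.87 with TNF in MUG-Chor1, against 3.43 to 3.69. Of 5 leukocyte markers tested, 2 were called higher across both lines, CD68 by 0.84 and ITGAM by 0.83 (limma adjusted p = 0.0485 and 0.0448). Over all genes 1.55% were called higher in that comparison. In U-CH1 all 5 had an effect above 0, with a median of 0.68, against 0.04 over all genes. PTPRC and CD3E, which define leukocytes and T cells, never passed the filter. Each TNF array correlated with its line's controls at a mean r of 0.94 in U-CH1 and 0.93 in MUG-Chor1, against 0.96 to 0.97 among controls. The part of these shifts in the fall of FOS and FOSB was not tested.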

How the data were processed

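RNA was measured in 8 samples on whole-transcript arrays. The authors deposited a table of 53617 probe sets with a value for each array. Per the submitters' processing notes they used RMA and Transcriptome Analysis Console, for which no version is stated. The log base is not stated either, so the deposited values, which run from 0.0648 to 12.7, were taken as log2, the scale RMA gives. A shift common to every gene cannot be seen after RMA's usual equalising of arrays. No scan date, batch or detection call was used here, so array batch and TNF cannot be told apart. The number of arrays limits the precision.

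Probe sets were named by the platform annotation: 1 symbol for 23871, several for 1842 and no entry for 27904. Symbols were updated for 90 through Entrez identifiers. The brightest probe set was kept for each of 22395 genes, and 16986 genes above 2.57, the median of all values, on at least 1 array were tested. Tests used limma 3.58.1 in R 4.3.3 (lmFit, eBayes; two-sided; Benjamini-Hochberg over all genes tested; threshold 0.05). The effect across lines was fitted with line and TNF as additive terms and 5 residual degrees of freedom. The other contrasts came from 4 group means, with 4. The contrasts share control arrays. No 2 arrays were identical. Same-numbered controls of the lines deviated with r of 0.04, -0.06 and 0.16, and differently numbered ones with r of -0.15 to 0.14. These few weak values cannot show whether the numbers pair the samples, and the main fits used no pairing. The fits were tested on simulated data.

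The members, gene lists and naming rule were chosen with earlier results of these data known. The rule named all members, up to 4 called genes by size from each other list (or the gene with the smallest p), and EGR1, DUSP1, ATF4 and DDIT3. Likeness took the 5 highest r. The pairwise comparison of FOS and FOSB with other members was added after the data were examined. Alternatives covered the filter, probe sets, normalization, variance model, array weights, the model and leaving out each array. Promoter windows were the 250 bases before each start in RefSeq (GRCh38.p14); 7 of 8 members matched, and FOSL1 did not.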

Additional observations from a re-analysis of the deposited data

Results flagged for a closer look

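The TNF effect on EGR1 differed between the lines by -4.14 on the log2 scale, MUG-Chor1 minus U-CH1, in the limma interaction test (adjusted p = 0.0102). The same test found larger effects in MUG-Chor1 for PSAT1, by 2.50 (adjusted p = 0.0315), and for SLC7A11, by 2.52 (adjusted p = 0.0450). Among cell type markers the difference was -2.05 for KRT19 (adjusted p = 0.0364), -2.47 for CD24 (adjusted p = 0.0238), -3.31 for ACAN (adjusted p = 0.0211) and 3.95 for FAP (adjusted p = 0.00336), in the same limma test. Each line has 1 TNF array, which is assumed to vary like the controls. Groups of 3 controls are too small to look for single arrays that stand apart.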

How the results depend on the processing

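Across both lines the fall of FOS kept its direction and call in every alternative run. That of FOSB did so by its brightest probe set and by the mean of both. With arrays left out in turn the effect was -4.91 to -3.09 for FOS and -4.65 to -3.90 for FOSB. The second FOSB probe set on its own, at -1.56, missed the threshold (limma adjusted p = 0.0822). With the mean of both FOSB probe sets the FOSB effect was -2.92 across both lines, -2.64 in U-CH1 and -3.20 in MUG-Chor1. Leaving out each array in turn gave 2 members called across both lines and in MUG-Chor1 each time, 1 to 2 in U-CH1, 0 in the difference of effects and 1 to 3 between control lines. Without the filter on dim genes 2 members were called between control lines. Over all genes, leaving out arrays gave 199 to 489 calls across both lines, 104 to 329 in U-CH1, 284 to 664 in MUG-Chor1, 38 to 152 for the difference and 2123 to 3090 between control lines. Calls numbered 739 across both lines as the mean of the within-line effects. In MUG-Chor1 they numbered 765 with array weights and 296 with its arrays alone. Members with small effects changed sign: FOSL2 in MUG-Chor1 was at -0.0034 after a second quantile normalization, and JUNB across both lines was at -0.0497 with array weights. With arrays left out in turn, effects across both lines ranged from -0.56 to 0.62 for JUNB, -0.0362 to 0.70 for ATF3, -0.45 to 0.39 for ATF4 and -0.0523 to 1.29 for DDIT3. The effect in U-CH1 ranged from -0.36 to 0.32 for ATF3, and the difference of effects from -0.0255 to 0.49 for FOSL1 and -1.04 to 0.0860 for DUSP1. Of the immediate early list, 2 genes were lower across both lines without the filter, 3 with array weights, 8 as the mean of the within-line effects and 1 to 5 with arrays left out, against 5. The count of higher genes in that list was 0 to 2, against 1. The mean of the within-line effects also called 5 integrated stress genes, against 0, and 2 feedback genes, against 1. With arrays left out these counts were 0 to 7 and 0 to 1, and 3 to 5 AP-1 targets were higher, against 5. The causes were not tested. The replicate number as a block over the 6 controls called 3248 genes between the lines, against 3209 without it. ATF3 passed with the block (limma adjusted p = 0.0452). Whether the numbers pair the samples is not known.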
